A study of Mus musculus with 2 samples.

Results

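The miR-200 family of the mouse was read with 5 probes, 1 for each of mmu-miR-200b, mmu-miR-200a, mmu-miR-429, mmu-miR-200c and mmu-miR-141, out of 566 probes for mouse miRNAs on the panel. Members were chosen by name as the unstarred mouse probes, and the family itself was selected on earlier values of the same libraries, so its levels are given as a description. The panel held 0 probes for the star strands of the 5 hairpins.

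Müller glia (MG), which span the retina and support its neurons, were sorted by FACS for the red reporter tdTomato and their miRNAs were counted as single molecules on a NanoString nCounter panel. Wild-type MG (Rlbp1-CreER:tdTomato) were pooled from 40 retinas and Dicer-CKO MG (Rlbp1-CreER:tdTomato:Dicerf/f) from 26 retinas. Both groups carried the CreER driver and the reporter and both received tamoxifen at 75 mg/kg from postnatal day 11 to 14, so that the floxed Dicer alleles were the labelled difference. Each group was 1 pooled library, so no value had a replicate check and no test across animals was possible. As limits of the model, the study describes the deletion as incomplete, and the Rlbp1 promoter as also active in some cells of the retinal pigment epithelium. The sample titles call the MG of both groups adult, and the labels used here gave no exact age at sorting.

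miR-200 miRNAs are known from epithelial cells, where they repress the transcription factors Zeb1 and Zeb2 and thereby hold E-cadherin expression and the epithelial state. They are made from a pair of separate clusters, each giving several hairpins from 1 primary transcript, and Dicer cuts each hairpin to release the mature strand. In the nervous system they are best known from olfactory and other sensory epithelia, and MG are not a cell type they are usually taken to mark.

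The mature sequences are shown because the members fall into seed groups that cross the clusters. All 5 members were matched by name in the RefSeq annotation of GRCm38.p6. The probe names carry no arm, and the unstarred name was taken as the 3p strand. Sequences run 5′ to 3′, with the seed (bases 2 to 8, which pair with targets) in capitals.
mmu-miR-200b: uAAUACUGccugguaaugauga
mmu-miR-429: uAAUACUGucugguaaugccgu
mmu-miR-200c: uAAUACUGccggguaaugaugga
mmu-miR-200a: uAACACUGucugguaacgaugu
mmu-miR-141: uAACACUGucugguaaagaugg

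mmu-miR-200b, mmu-miR-429 and mmu-miR-200c shared 1 seed, and mmu-miR-200a and mmu-miR-141 shared the other. Among 1679 mature mouse names in the table, no name outside the family had either seed. The seeds differed at 1 base, U4C from mmu-miR-200b to mmu-miR-200a, counted from 1 at the 5′ end. Over the 22 bases compared, mmu-miR-200b and mmu-miR-200c differed at 2 (U11G and A22G), as did mmu-miR-200a and mmu-miR-141 (C17A and U22G). Each of these near-identical pairs lay across clusters, whereas members of 1 cluster differed at 4 of 22 bases.

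The genes Mir200b, Mir200a and Mir429 lay within 1846 bp on the minus strand of chr4:156053905-156055750 (GRCm38.p6), inside the long non-coding RNA gene Gm13648, with Ttll10 as the nearest coding gene at 3088 to 4864 bp. Mir200c and Mir141 lay within 477 bp on the minus strand of chr6:124717914-124718390. No annotated gene overlapped them, and the nearest coding gene was Phb2 at 969 to 1377 bp.

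The wild-type library held 769736 barcodes and the Dicer-CKO library 139812 over all 626 probes of the panel, 695390 and 52644 of them on mouse miRNA probes. The 4 housekeeping mRNAs also had fewer counts in Dicer-CKO MG, 2.80 to 4.53 times fewer, with 7024 against 1939 for Actb. By the methods of the study, about equal masses of total RNA were submitted for both samples. For a single miRNA in such pooled material, fewer cells that carry it and less of it per cell cannot be told apart. The 5 MG miRNAs (let-7c, miR-125b-5p, miR-181a, miR-204 and miR-9) were listed with earlier results of these data known. Their rank therefore describes the libraries and does not test the identity of the cells. They were the 5 highest of the mouse probes in wild-type MG, at 22705 to 247414 raw counts. In Dicer-CKO MG they had 1898 to 6906 raw counts. miR-200 family counts lay near the floor of the assay by comparison, and the floor was measured in each library by 8 negative-control probes and by 33 probes for viral miRNAs.

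Only mmu-miR-200b stood above the detection limit, and it did so in both libraries. A probe was called detected when its raw count was more than 2 SD above the mean of its library's negative controls, a limit of 71.7 raw counts in wild-type MG and 53.2 in Dicer-CKO MG. By this rule 1 of 5 members was detected in each library, against 171 of 566 mouse probes (30.2%) in wild-type MG and 77 of 566 (13.6%) in Dicer-CKO MG. The limit of the Dicer-CKO library rested on 1 negative control, which had 59 raw counts where the next highest had 21. Without that control, an alternative chosen after the values were seen, the limits were 64.6 and 26.0 raw counts. mmu-miR-200c was then detected in wild-type MG as well, so that 2 of 5 members were detected there and 1 in Dicer-CKO MG, against 201 and 184 of the 566 mouse probes.

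mmu-miR-200b, of the cluster on chromosome 4, had 94 raw counts in wild-type MG (95% exact Poisson interval 76.0 to 115) and 106 in Dicer-CKO MG (86.8 to 128). These intervals, like all others given here, cover counting error only. The intervals of the libraries overlapped, and mmu-miR-200b was the only member whose raw count was not lower in Dicer-CKO MG. The median raw count of the 566 mouse probes was 48 in wild-type MG and 18 in Dicer-CKO MG. The place of mmu-miR-200b among them by raw count was 140 in wild-type MG and 50 in Dicer-CKO MG. The wild-type value cleared its floor narrowly: no viral probe reached it, but the highest viral probe had 91 raw counts and 2 of 33 viral probes passed the same limit. In Dicer-CKO MG the highest viral probe had 32 raw counts, none passed the limit, and the highest negative control had 59. mmu-miR-200b thus stood further from the floor in Dicer-CKO MG, at 5.21 SD above the mean of the negative controls against 3.35 SD in wild-type MG.

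mmu-miR-200a, from the same primary cluster, had 59 raw counts in wild-type MG (44.9 to 76.1) and 18 in Dicer-CKO MG (10.7 to 28.4). Both lay below the limit, although the wild-type interval reached past it. As high or higher were 7 of 33 viral probes in wild-type MG and 20 in Dicer-CKO MG. mmu-miR-429, the last hairpin of the cluster, had 21 raw counts in wild-type MG (13.0 to 32.1) and 9 in Dicer-CKO MG (4.12 to 17.1). It lay below the mean of the negative controls in both libraries (38.6 and 20.4 raw counts), with 23 and 30 of the viral probes at or above it.

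mmu-miR-200c, of the cluster on chromosome 6, had 65 raw counts in wild-type MG (50.2 to 82.8) and 21 in Dicer-CKO MG (13.0 to 32.1). In wild-type MG it was the highest member after mmu-miR-200b, higher than all 8 negative controls but not higher than 5 of the viral probes, and its interval reached past the limit. The counts of mmu-miR-200a and mmu-miR-200c in wild-type MG did not differ beyond their intervals. In Dicer-CKO MG mmu-miR-200c was at the mean of the negative controls, although it differs from mmu-miR-200b at only 2 bases. mmu-miR-141 had 19 raw counts in wild-type MG (11.4 to 29.7) and 16 in Dicer-CKO MG (9.15 to 26.0), below the mean of the negative controls in both. For these 4 members no ratio between the libraries was formed, because neither library gave a value above its limit.

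**Figure D1:**
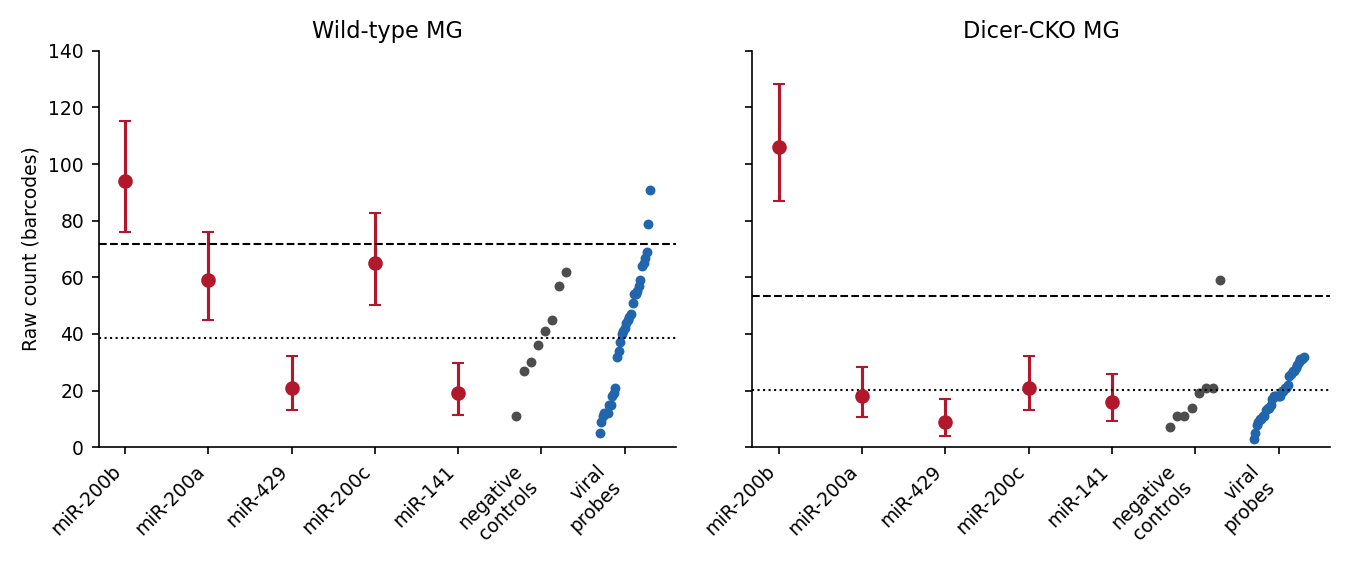
Raw counts of the 5 members, the 8 negative controls and the 33 viral probes in the wild-type (left) and Dicer-CKO (right) library; bars on the members are 95% exact Poisson intervals, the dashed line is the detection limit (71.7 and 53.2 raw counts) and the dotted line the mean of the negative controls (38.6 and 20.4). miR-200b is above the dashed line in both libraries, and the other 4 members lie among the control probes.

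What a count below the limit allows differed between the libraries. On the scale of the housekeeping genes, which is explained with the ratio of mmu-miR-200b, the limit was a scaled count of 23.6 in wild-type MG and 90.0 in Dicer-CKO MG. The wild-type level of mmu-miR-200b was a scaled count of 39.6, under the limit of the Dicer-CKO library. This turned without the highest negative control, where the limits were 21.0 and 29.7 and mmu-miR-200b was at 42.1 in wild-type MG. mmu-miR-200a, mmu-miR-429 and mmu-miR-141 were not detected under either limit, and mmu-miR-200c only in wild-type MG under the lower one. Their absence is not shown by counts at this depth.

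Summed by cluster, the raw counts of mmu-miR-200b, mmu-miR-200a and mmu-miR-429 came to 174 in wild-type MG, where 116 were expected from background, and to 133 in Dicer-CKO MG, where 61.1 were expected. The sum passed its limit (the expected background plus 2 SD for 3 probes) narrowly in wild-type MG, at 173, and more clearly in Dicer-CKO MG, at 118. Without mmu-miR-200b the cluster had 80 raw counts against 77.3 expected in wild-type MG and 27 against 40.8 in Dicer-CKO MG. In wild-type MG these 80 raw counts joined mmu-miR-200a, above the mean of the negative controls, and mmu-miR-429, below it. mmu-miR-200b thus carried the summed counts above background of its cluster.

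The cluster of mmu-miR-200c and mmu-miR-141 had 84 raw counts in wild-type MG, against 77.3 expected from background, and 37 in Dicer-CKO MG, against 40.8. It did not pass its limit in either library (124 and 87.2), and as the Dicer-CKO sum was below background no ratio was formed. The difference between the clusters was therefore that of 1 probe. Grouped by seed, mmu-miR-200b, mmu-miR-429 and mmu-miR-200c came to 180 raw counts in wild-type MG and 136 in Dicer-CKO MG, and mmu-miR-200a with mmu-miR-141 to 78 and 34. The first seed group held mmu-miR-200b, and the second was at background in both libraries. Over all 5 members the raw sum was 258 in wild-type MG (193 expected, limit 267) and 170 in Dicer-CKO MG (102 expected, limit 175), so the family as a whole did not pass its own limit in either library.

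To compare the libraries, background (the mean of the negative controls) was removed and the counts were scaled by the positive controls and then by the 4 housekeeping mRNAs. mmu-miR-200b had a scaled count of 39.6 in wild-type MG and 235 in Dicer-CKO MG, a ratio of 5.92 (3.07 to 12.2). A probe was called when it differed at least 2-fold and its interval did not reach 1. By this rule mmu-miR-200b was the 1 member called higher, where 21 of 566 mouse probes were (3.71%). The highest negative control (62 and 59 raw counts) also met the rule, as a bound, because its wild-type count was below the limit. A call higher near the floor can thus arise from background. No member was called lower, where 52 of 566 probes were (9.19%), but none could have been. No member had a wild-type scaled count above 39.6, and the Dicer-CKO limit was 90.0, too high to show a 2-fold lower level. For the same reason mmu-miR-200b could only be called higher or not called. These counts therefore do not set the family apart from the other probes. On this scale the median ratio of the 74 mouse probes measured in both libraries, mmu-miR-200b among them, was 0.461. In the normalized counts that the authors deposited, mmu-miR-200b was at 34 in wild-type MG and 206 in Dicer-CKO MG. The other members had deposited values of 1 to 16 in wild-type MG and 1 to 2 in Dicer-CKO MG.

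The size of this difference was set by the scale. Scaled by the positive controls alone, which are spiked in and follow the assay and not the amount of RNA, mmu-miR-200b was at 66.9 in wild-type MG and 73.0 in Dicer-CKO MG, a ratio of 1.09 (0.567 to 2.24). On that scale no member was called in either direction, while 2 of 566 mouse probes (0.353%) were called higher and 137 (24.2%) lower. The ratio was 1.13 with the ligation controls and 1.55 (0.803 to 3.18) with no scaling. It was 13.5 (7.01 to 27.7) when the 100 highest mouse miRNAs were held equal and 24.7 (12.8 to 50.8) when the sum of all detected ones was. mmu-miR-200b thus differed by less than counting error per assay, and was higher per housekeeping mRNA, and higher still as a share of the miRNAs counted. It made up 0.00820% of the detected mouse miRNA signal in wild-type MG (0.00553% to 0.0113%) and 0.203% in Dicer-CKO MG (0.157% to 0.255%).

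**Figure D2:**
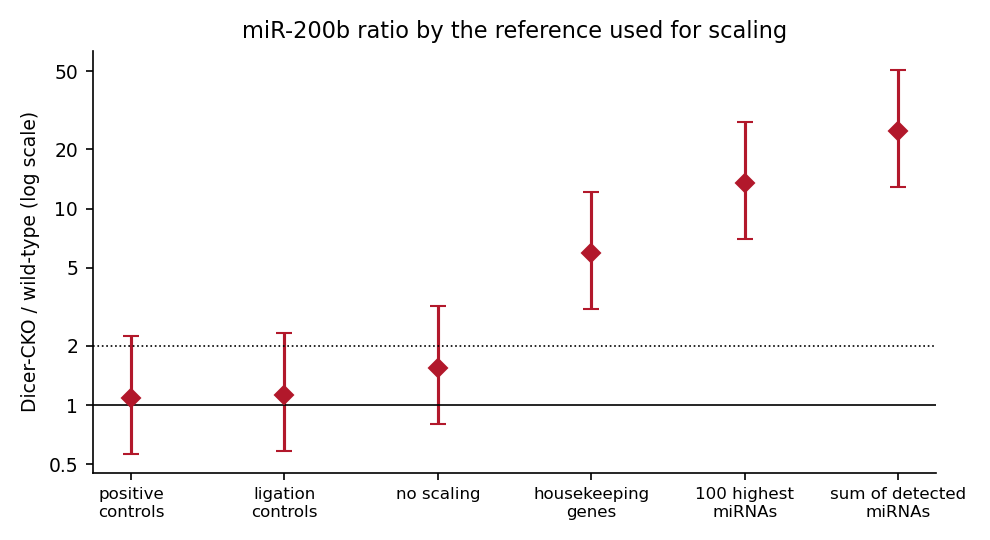
Ratio of miR-200b in Dicer-CKO over wild-type MG (vertical log axis) under 6 references for scaling; bars are intervals for counting error, the solid line marks equality and the dotted line a 2-fold difference. The ratio ran from 1.09 with the positive controls to 24.7 with the sum of detected miRNAs, and the 3 references on the left gave intervals that include 1.

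For the cluster of mmu-miR-200b, mmu-miR-200a and mmu-miR-429 the ratio of the summed, scaled counts was 4.73 (2.01 to 12.8) on the housekeeping scale and 0.872 (0.371 to 2.36) on the positive-control scale. For all 5 members it was 4.02 (1.49 to 12.6) and 0.741 (0.275 to 2.33), although that sum passed its limit in neither library. Both ratios were thus above 1 beyond counting error on the housekeeping scale. On the positive-control scale both intervals included 1 and gave no direction.

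mmu-miR-200b was then set against miRNAs of other cells within each library, since a ratio of probes within a library does not depend on the scale. This comparison was chosen after the values were seen. As a share of miR-204, the most abundant MG miRNA, mmu-miR-200b came to 0.0224% in wild-type MG and 1.24% in Dicer-CKO MG, 55.6 times more (25.9 to 129). Against the 5 MG miRNAs the relative level was 15.5 to 55.6 times higher in Dicer-CKO MG, and 0 of 5 intervals included 1. On the housekeeping scale the MG miRNAs were called lower in 5 of 5 cases (ratios of 0.107 to 0.381). With a wild-type scaled count of 39.6 against a Dicer-CKO limit of 90.0, mmu-miR-200b could be measured in both only with a ratio above 1. A lower level of it would have given only a bound. The contrast with the MG miRNAs therefore describes the values and is not a test.

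Against 11 measured probes of neurons, photoreceptors, immune cells, vessels and pigment epithelium, the relative level of mmu-miR-200b was 0.491 to 2.61 times that of wild-type MG, and all 11 intervals included 1. It was 0.662 (0.283 to 1.68) against miR-124, a neuronal miRNA with 1211 raw counts in wild-type MG and 2759 in Dicer-CKO MG. It was 1.19 (0.434 to 3.51) against miR-183, a photoreceptor miRNA with 353 and 430 raw counts. An interval that includes 1 does not show that the probes were alike, and most of these intervals spanned several-fold differences. Only probes above both limits were compared, so weak probes entered only where they were high enough in Dicer-CKO MG.

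**Figure D3:**
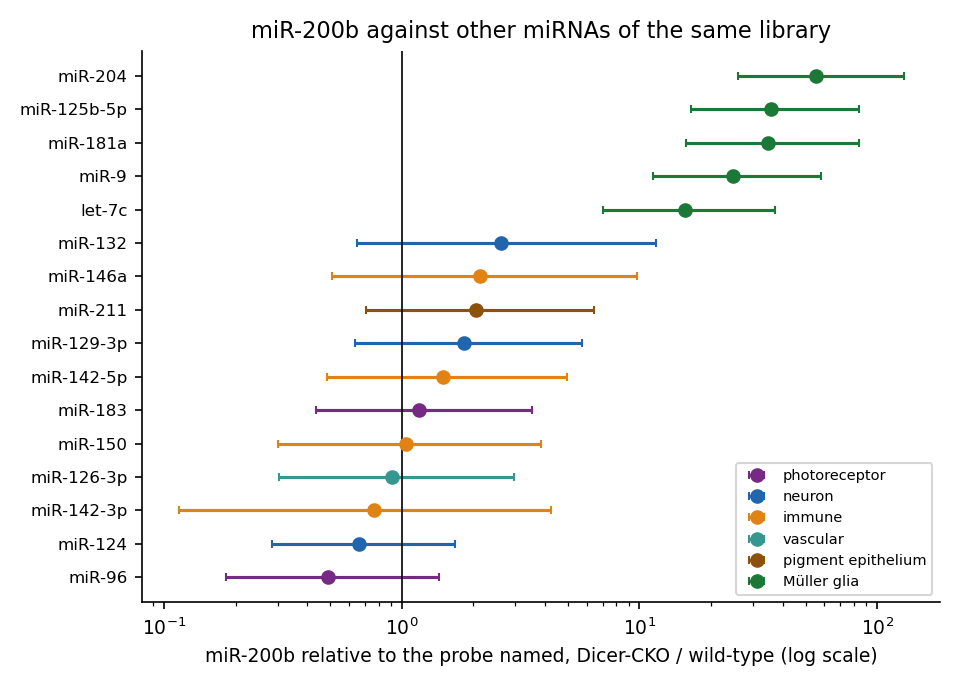
Level of miR-200b relative to each of 16 other probes, as the Dicer-CKO value over the wild-type value (horizontal log axis); points are ratios of background-subtracted counts, bars are intervals for counting error and colours give the list of the probe. The 5 MG miRNAs lie at 15.5 to 55.6 and the other 11 probes at 0.491 to 2.61 with intervals across 1.

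On the housekeeping scale probes of other cells were called higher as mmu-miR-200b was, where 21 of 566 mouse probes were (3.71%). The scaled limit was 23.6 in wild-type MG and 90.0 in Dicer-CKO MG, so a weak probe could be measured in both only with a high ratio. Called higher were 3 of 5 neuronal, 2 of 3 photoreceptor, 4 of 5 immune and 1 of 2 vascular probes. The 1 pigment epithelium probe (miR-211, 329 and 239 raw counts) was called as well. For erythroid probes it was 0 of 3, and these were not detected. Summed over their lists, raw counts were 678 in wild-type MG and 1271 in Dicer-CKO MG for photoreceptors, 594 and 593 for immune cells, and 234 and 347 for vessels. The neuronal sum was 1800 and 3135, but only miR-124 had more raw counts in Dicer-CKO MG. The other 4 neuronal probes (miR-129-3p, miR-132, miR-137 and miR-128) all had fewer, at 57 to 313 raw counts in wild-type MG and 21 to 252 in Dicer-CKO MG. miR-128, miR-182, miR-223 and miR-126-5p were below the limit in both libraries. Their part in the counts of mmu-miR-200b was not tested. On the positive-control scale only miR-96 of these probes was called higher, and miR-132 was called lower.

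Among the 73 other mouse probes measured in both libraries, those with the log2 ratio nearest to that of mmu-miR-200b (2.57) were miR-150 (2.50), miR-126-3p (2.70), miR-183 (2.32), miR-142-3p (2.95) and miR-539 (2.14). The measure of likeness was the difference of log2 ratios between 2 libraries. Weak probes reached this comparison only where they were above the limit of the Dicer-CKO library, which favours high ratios among them. miR-150 and miR-142-3p are known from lymphoid and other blood cells, miR-126-3p from endothelium and miR-183 from photoreceptors and other sensory cells. miR-539 is on none of the comparison lists.

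miRNAs known from other epithelia had fewer raw counts in Dicer-CKO MG than in wild-type MG at all 6 probes. Of them, 3 passed the limit in wild-type MG and 0 did so in Dicer-CKO MG, or 4 and 2 (miR-203 and miR-205) without the highest negative control. miR-203, of stratified epithelium, had 112 raw counts in wild-type MG and 29 in Dicer-CKO MG, miR-194 had 103 and 16, and miR-192 had 73 and 18. The remaining probes were below the main limit in both, with 68 and 31 raw counts for miR-205, 57 and 22 for miR-31, and 14 and 3 for miR-375. In wild-type MG miR-203 and miR-194 were at least as high as mmu-miR-200b in raw counts, whereas in Dicer-CKO MG mmu-miR-200b was above all 6, of which the highest had 31. On the housekeeping scale the limit of the Dicer-CKO library left bounds of at most 1.71-fold for miR-203, 1.95-fold for miR-194 and 3.66-fold for miR-192, which give no direction. Whether these probes differed from mmu-miR-200b in ratio was therefore not measured. On the positive-control scale miR-203 and miR-194 were called lower, and miR-192 was not.

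**Figure D4:**
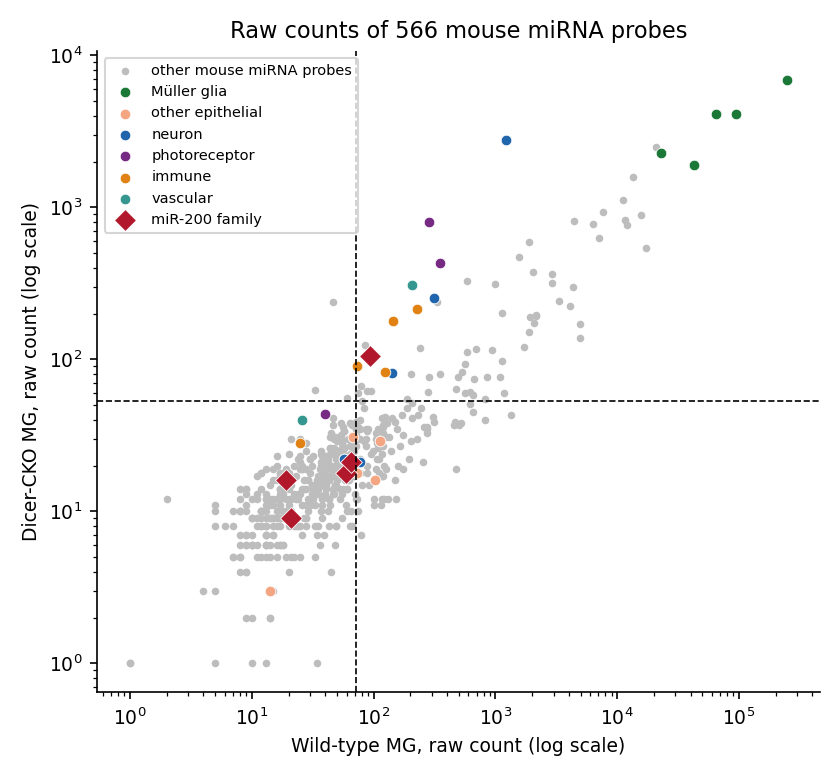
Raw counts of the 566 mouse miRNA probes in the wild-type (horizontal) and Dicer-CKO (vertical) library on log axes; dashed lines mark the detection limits of 71.7 and 53.2 raw counts, diamonds are the 5 members and coloured points the comparison lists. miR-200b, at 94 and 106, lies above both lines. Beside it are probes of the neuronal, photoreceptor, immune and vascular lists, and probes on no list, such as miR-466g (85 and 124). The other members lie among the undetected probes.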

How the data were processed

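miRNAs of FACS-sorted MG were measured in 1 pooled library each of wild-type and Dicer-CKO mice. Groups were taken from the sample labels. One label gives 26 retinas for both samples, and the description of the wild-type sample gives 40, which was used. For each probe the authors deposited the raw count of barcodes, and normalized counts made with nSolver from 4 housekeeping genes, 8 negative and 6 positive controls. The deposited normalized values are a score on the authors' own scale, rounded to whole numbers, and served as an alternative. The background step used by the authors was not given in the sources used here. Probes were matched by accession, because 9 are written differently in the files.

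From the raw counts, background (the mean over the negative controls) was removed in each library, and counts were multiplied by factors from the geometric means of the positive controls and of the housekeeping genes. Sums of members kept values below background as negative. A ratio is the Dicer-CKO over the wild-type value. For a single probe it is a bound where only 1 library was above its limit, and not given where neither was. For a sum the limit was not applied, and no ratio was given where a sum was below background. The interval of a ratio combines exact Poisson limits of the raw counts. These were taken at 97.5% for each of both counts, and at 98.75% for each of the 4 counts in comparisons within libraries. The background mean was taken as known, so its own error is not included. The depth of the libraries was 769736 and 139812 barcodes. Calculations used Python 3.11.15, numpy 2.4.6, scipy 1.17.1 and pandas 2.3.3. The steps were checked on simulated data only for probes far above background. Counts near the floor, like those of this family, were not checked in this way.

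Named miRNAs were the members, the star probes, the comparison lists and the 5 probes with the nearest ratio to the member of highest raw count. The members and lists were chosen with earlier results of these data known. Alternatives changed the background, the scale, the detection rule, the kind of mean, the interval or the housekeeping genes. The background from the viral probes, the background without the highest negative control and the comparison within libraries were added after the data were seen.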

Additional observations from a re-analysis of the deposited data

How the results depend on the processing

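The ratios of the sums depended on the reference for scaling. For all 5 members the ratio of 4.02 became 0.741 with the positive controls and 0.768 with the ligation controls, 1.05 with no scaling and 16.8 with the sum of detected miRNAs. For mmu-miR-200b, mmu-miR-200a and mmu-miR-429 the ratio of 4.73 became 0.872, 0.904, 1.24 and 19.8 in the same order. With the positive controls, the ligation controls and no scaling, the intervals of both sums included equality, so these references gave no direction. For mmu-miR-200b alone the 5.92 became 1.09, 1.13, 1.55 and 24.7, and 13.5 with the 100 highest miRNAs. The number of members called higher was 0 with the positive controls, the ligation controls and no scaling. Which reference holds was not tested. Leaving out each housekeeping gene gave 5.44 to 6.45 for mmu-miR-200b, and 13 alternatives in all kept it between 4.10 and 10.6. Among them, the other detection rule and the other interval left the 5.92 unchanged by construction and so did not test it. In wild-type MG 2 members were detected when the limit was the highest negative control, or when that control was left out, as mmu-miR-200c was added. Leaving it out took the Dicer-CKO limit from 53.2 to 26.0 raw counts and the mouse probes detected there from 77 to 184. The cluster of mmu-miR-200c and mmu-miR-141 gave a ratio only without background subtraction (1.60) or without the highest negative control (2.02). The sums gave none when the mean plus 2 SD or the highest negative control was subtracted. The number of members called lower was 0 throughout, but the members without a ratio could not be called. On the main housekeeping scale mmu-miR-200b could not be called lower either.

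No paired analysis was possible because each group was 1 library. Depth limits all members, since no raw count of the family was above 106.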
